A study of Mus musculus with 12 samples.

Results

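Kidney cortex of NASH mice was compared with that of control mice at 24 weeks, across all measured genes. NASH, non-alcoholic steatohepatitis, is fat and inflammation in the liver. The 24-week comparison holds 6 of the 12 libraries of the series, chosen by their titles: 3 of NASH mice and 3 of control mice, matched by the replicate numbers 1, 2 and 3. The NASH mice were C57BL/6J mice given a diet labelled WD and the liver toxin carbon tetrachloride (CCl4); the labels give 10 animals, 5 males and 5 females. The control mice were C57BL/6J mice on normal diet with corn oil, 8 animals, 4 males and 4 females. The other 6 libraries are the same groups at 12 weeks, with 3 libraries each. Diet, toxin and liver disease differ together between the groups and cannot be told apart. The labels do not say which animals, of which sex, or how many of them, made up a library, so the spread between libraries may be partly technical.

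Fatty liver disease is known to reach the kidney through circulating lipids, bile acids and inflammatory signals. The cortex is mostly proximal tubule, a segment that burns fatty acids, takes up filtered solutes and carries strongly sex-dependent transport and detoxification genes. Its transcripts also follow a daily rhythm set by the circadian clock, so the hour of dissection is visible in such profiles.

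Values are the deposited log2 levels, and a change is the fitted log2 difference, NASH minus control, with its standard error (SE). Each gene was tested with limma in a model with the replicate number as a block, and a gene was called at a Benjamini-Hochberg adjusted p under 0.05 over 11614 genes. Depth, estimated from the steps of the values, was 12300000, 11290000 and 8280000 reads in the NASH libraries and 10060000, 14050000 and 11230000 reads in the control libraries. Replicate 1 stood apart from replicates 2 and 3 in every group. Xist, transcribed from the inactive X chromosome of females, lay at 11.08, 3.90 and 4.21 in the NASH libraries and at 10.66, 4.86 and 3.30 in the control libraries. The Y-linked gene Ddx3y showed the reverse, with 3.75, 9.09 and 9.13 in NASH and 4.25, 9.34 and 9.45 in control libraries. Replicate 1 of both groups therefore reads as female and the others as male, and levels are given by replicate. Control replicate 1 also stood apart by its fat cell markers. The log2 of their summed level was 15.12 there, against 10.28 to 12.24 in the other 24-week libraries. The tissue label was checked with 1 marker, which speaks for kidney and does not tell cortex from other parts of it. The proximal tubule phosphate transporter Slc34a1 was highly expressed, at 16.33, 16.55 and 16.49 in NASH and 16.47, 16.39 and 16.44 in control libraries. Replicate 1 of both groups also differed in its segment markers, by the log2 of their summed level. Henle loop and distal tubule markers were at 17.43, 15.81 and 15.42 in NASH and 17.18, 15.61 and 15.65 in control libraries. Proximal tubule markers were lower in replicate 1, at 19.01 in NASH and 18.68 in control, against 19.61 to 19.71 in the others.

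Azgp1 fell in NASH kidneys at 24 weeks and was the 1 gene called among 11614 (0.00861%). It encodes zinc-alpha-2-glycoprotein, a secreted protein with a class I histocompatibility fold that is known to promote lipid breakdown in fat. Its gene lies on mm10 at chr5:137981521-137990232, on the plus strand. Its level was 7.11, 10.64 and 10.59 in the NASH libraries, against 8.58, 12.02 and 12.03 in the control libraries. The groups overlap, because replicate 1 is low in both, but within each pair the NASH library was lower, by -1.47, -1.38 and -1.45. The change was -1.43 (SE 0.11; 95% interval -1.68 to -1.18; adjusted p = 0.000939), which makes the control level 2.70 times the NASH level. At 12 weeks the change was -1.52 (adjusted p = 0.000527), and the difference between the times was 0.08 (95% interval -0.27 to 0.44; adjusted p = 0.864). Without control replicate 1 the change was -1.38 (adjusted p = 0.012), and with replicates 2 and 3 alone it was -1.41 (adjusted p = 0.00177). The call rests on matching by replicate number: without the block Azgp1 had an adjusted p of 0.999, and 0 genes were called with limma, with 347 at an unadjusted p under 0.05.

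Beyond that gene, none was called at 24 weeks, which with 3 libraries per group does not show that the groups are alike. The absolute change had a median of 0.14 over all genes, beside a median SE of 0.156. It exceeded 1 in 121 genes (1.04%), against 309 (2.66%) at 12 weeks. At an unadjusted p under 0.05, 590 genes were higher (5.08%) and 534 lower (4.6%) in NASH, 9.68% in all. All 3 NASH libraries lay above all 3 control libraries in 530 genes (4.56%) and below them in 308 (2.65%). With the 24-week libraries fitted alone 8 genes were called, and with replicates 2 and 3 alone 25, 11 higher and 14 lower. Without NASH replicate 1 there were 4.

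**Figure D1:**
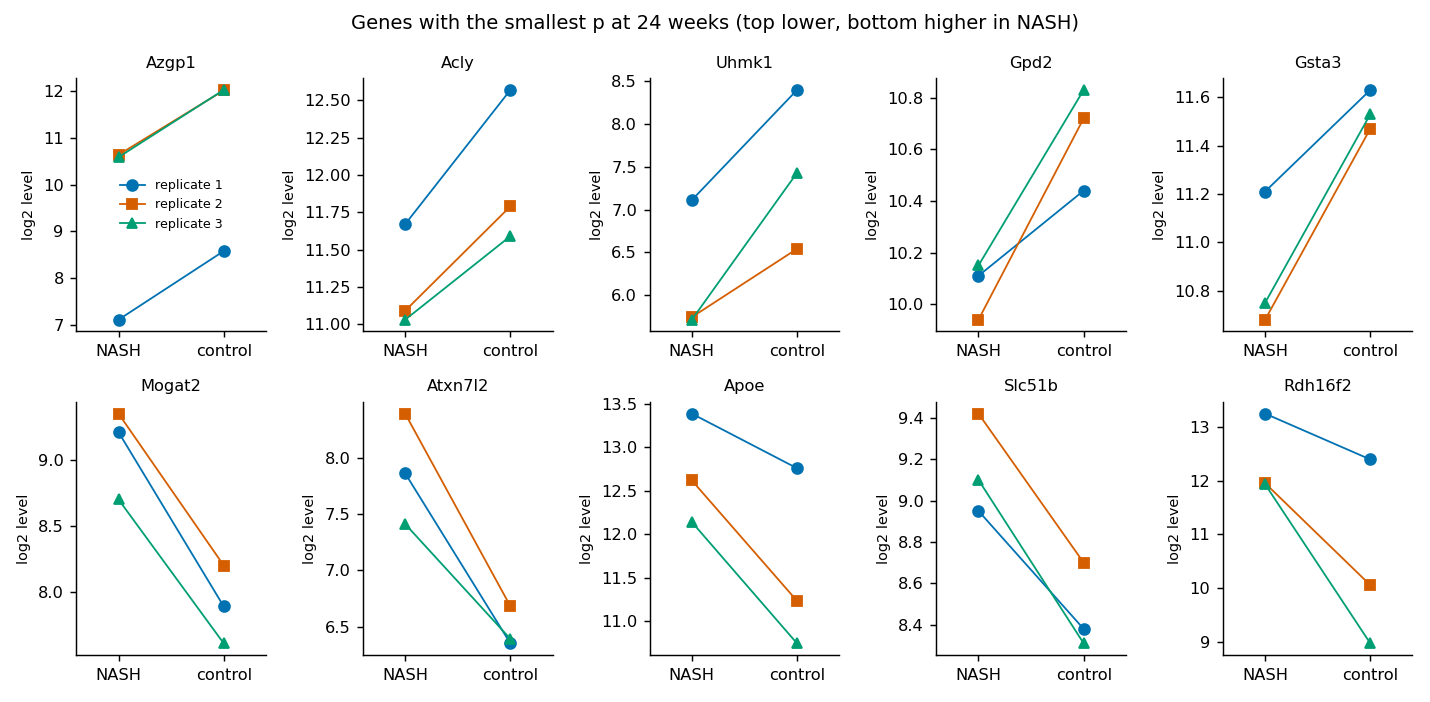
Deposited log2 level of the 5 genes with the smallest p that were lower (top row) and higher (bottom row) in NASH, for each 24-week library; lines join the NASH library (left) to the control library (right) of the same replicate number, and each panel has its own axis, which does not start at 0. All lines of a panel slope the same way, and Azgp1 alone was called.

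None of the genes next in rank passed the threshold. Mogat2, which makes diacylglycerol from monoacylglycerol, had 9.21, 9.35 and 8.70 in NASH libraries, against 7.89, 8.20 and 7.61 in control libraries. Every NASH library lay above every control library, and the change of 1.18 (SE 0.16) had an adjusted p of 0.0688. At 12 weeks the same gene was called higher, by 1.16 (adjusted p = 0.00463), and the difference between the times was 0.03 (95% interval -0.46 to 0.51). Apoe, the apolipoprotein E gene, had 13.39, 12.62 and 12.14 in NASH libraries and 12.76, 11.23 and 10.74 in control libraries. The groups overlap through control replicate 1, while each NASH library was above its own control; the change was 1.14 (SE 0.19; adjusted p = 0.188).

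Slc51b encodes the beta subunit of the organic solute transporter that exports bile acids across the basolateral membrane. It had 8.95, 9.42 and 9.10 in NASH libraries and 8.38, 8.70 and 8.31 in control libraries, with no overlap and a change of 0.69 (SE 0.12; adjusted p = 0.188). Atxn7l2, an ataxin-7-like gene, had 7.86, 8.39 and 7.41 in NASH and 6.35, 6.68 and 6.39 in control libraries, again with no overlap and a change of 1.41 (SE 0.23; adjusted p = 0.188). Rdh16f2, of the retinol dehydrogenase family, had 13.24, 11.95 and 11.93 in NASH and 12.39, 10.06 and 8.98 in control libraries. Its pairs differed in size, by 0.85, 1.88 and 2.95 (fitted change 1.89, SE 0.33; adjusted p = 0.2).

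On the lower side, Acly, which makes cytosolic acetyl-CoA for lipid synthesis, had 11.67, 11.09 and 11.03 in NASH libraries and 12.57, 11.79 and 11.59 in control libraries (change -0.72, SE 0.12; adjusted p = 0.188). Gpd2, the mitochondrial glycerol-3-phosphate dehydrogenase, had 10.11, 9.94 and 10.15 in NASH and 10.44, 10.72 and 10.83 in control libraries. All NASH libraries lay below all control libraries for Gpd2 (change -0.60, SE 0.10; adjusted p = 0.19). Gsta3, a glutathione S-transferase, was also apart, with 11.21, 10.68 and 10.75 in NASH and 11.63, 11.47 and 11.53 in control libraries (change -0.66, SE 0.12; adjusted p = 0.255). Uhmk1, a kinase acting on splicing factors, had 7.11, 5.74 and 5.71 in NASH and 8.40, 6.54 and 7.43 in control libraries (change -1.27, SE 0.22; adjusted p = 0.188). Uhmk1 and Gsta3 were called lower at 12 weeks, by -2.41 and -1.26.

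**Figure D2:**
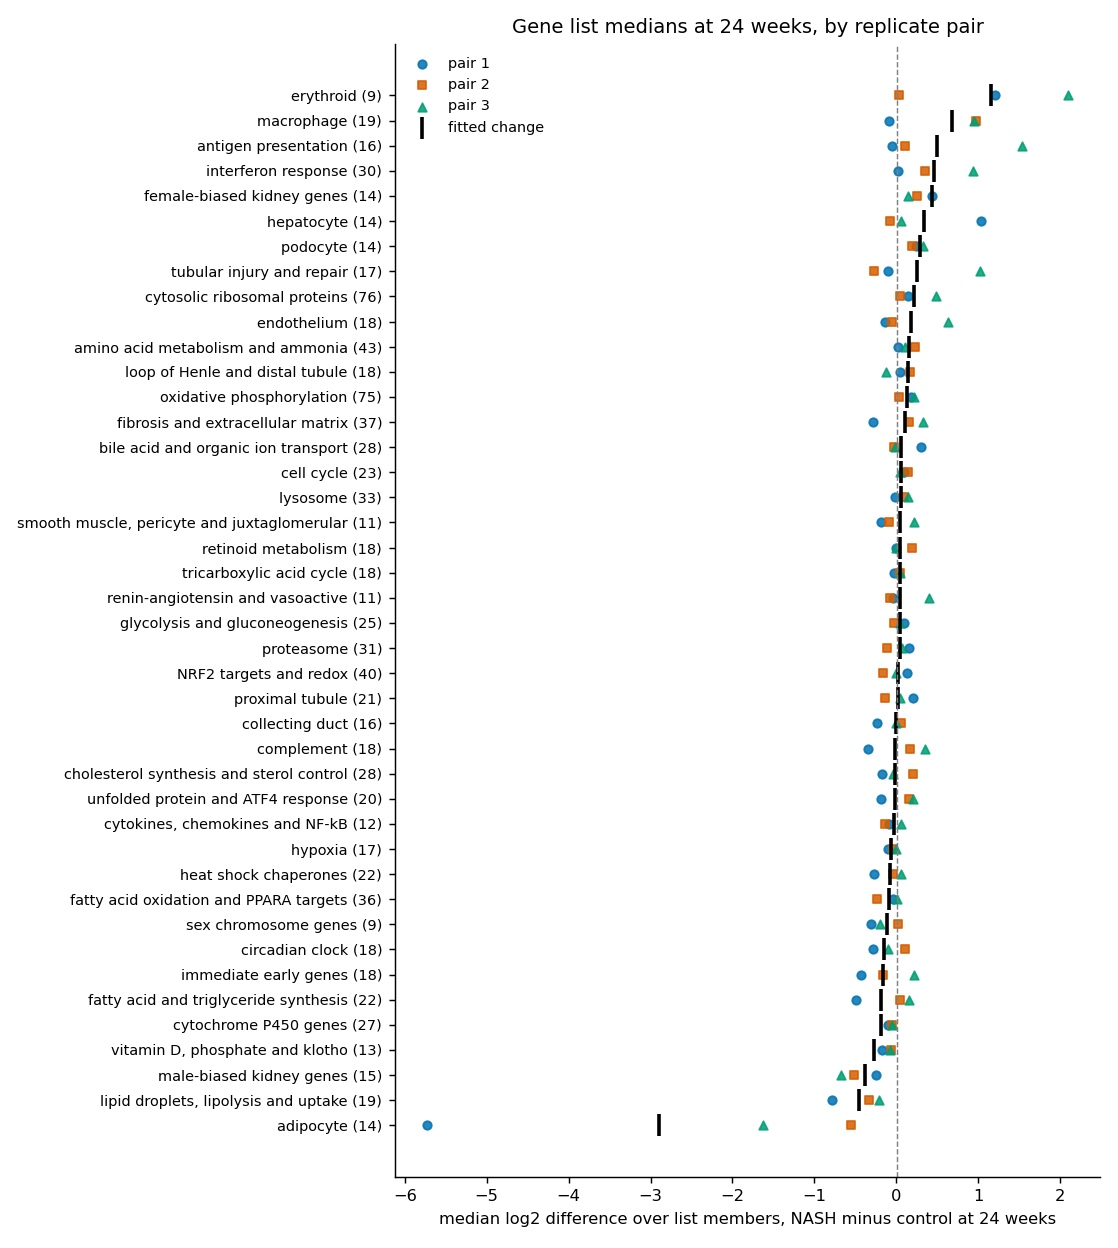
Median log2 difference, NASH minus control at 24 weeks, over the measured members of each gene list (number in brackets), for the 3 replicate pairs and for the fitted change; the dashed line is the median of all genes, 0.01. Adipocyte markers lie farthest below it, with pair medians of -5.73, -0.55 and -1.63, and erythroid and macrophage markers farthest above it.

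Of 1026 genes in 46 lists, 920 were measured and 0 were called with limma at 24 weeks, with 98 higher and 54 lower at an unadjusted p under 0.05, so the lists are described by counts and medians beside those of all genes (median change 0.01, with 52.1% of genes above 0). A gene was deposited only if it reached a normalized level of 100 in some library, so a listed gene that is missing may still be expressed at a low level. In tissue RNA, fewer cells of a type and less RNA per cell cannot be told apart.

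Lipid droplet genes leaned lower, while the other lipid lists had no common direction across pairs. Of 19 measured genes for lipid droplets, lipolysis and uptake, 17 were below 0 with a median of -0.45. Of them 5 were lower at an unadjusted p under 0.05, against 4.6% of all genes. In all 3 pairs 12 were lower, against 14.4% of all genes. These counts carry the limit from the filter on level that is given below with the fat cell markers. Fitm2, which helps droplets form, had 7.34, 7.66 and 7.71 in NASH and 8.70, 7.99 and 8.61 in control libraries (change -0.86, SE 0.21; adjusted p = 0.383). G0s2, an inhibitor of the lipase that opens droplets, had 8.50, 10.76 and 9.57 in NASH and 9.51, 11.10 and 10.81 in control libraries (change -0.86, SE 0.23; adjusted p = 0.394). The droplet coat genes Plin4 and Cidec had changes of -2.12 and -2.01 (adjusted p = 0.415 and 0.388), set mostly by pair 1, at -4.20 and -3.99. Plin2, the coat protein of droplets in most cells, had 10.65, 11.85 and 12.34 in NASH and 10.74, 12.40 and 12.13 in control libraries, with no common direction (change -0.14, SE 0.29).

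Several of these genes are also fat cell genes, and fat cell markers differed between the libraries. All 14 adipocyte markers were below 0, with a median of -2.90, and 10 were lower at an unadjusted p under 0.05, against 4.6% of all genes. A gene was kept only if it reached a normalized level of 100 in some library. A marker or droplet gene kept only through control replicate 1 would therefore tend to lie below 0. How many of either list were kept that way was not counted, so their shares are not strictly comparable with those of all genes. The log2 of the summed marker level, which the most abundant markers weigh most, was 10.28, 11.78 and 11.14 in NASH libraries. In control libraries it was 15.12, 12.24 and 11.96. Control replicate 1 stood far above the others: Adipoq, the adipokine adiponectin, was at 10.50 there, against 2.17 in its NASH partner, and Ucp1, the uncoupling protein of brown fat, at 11.88 against 4.26. These genes were picked after their values were seen, as defining markers. Without control replicate 1 the adipocyte median was -1.67 and the droplet median -0.34; with replicates 2 and 3 alone they were -1.13 and -0.25. The part of fat cells in the droplet genes was not tested.

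**Figure D3:**
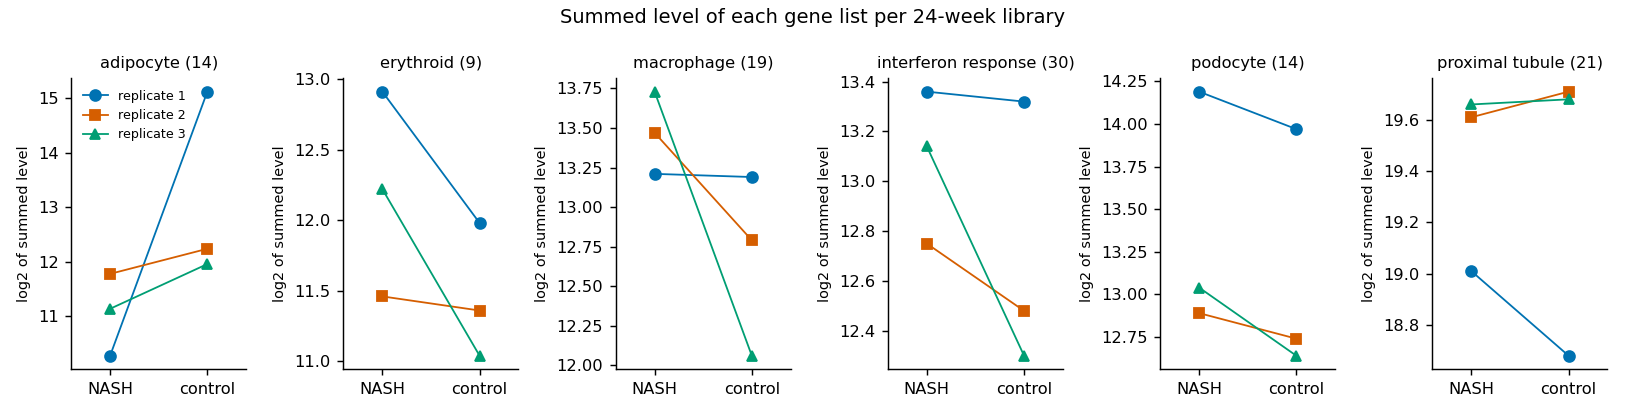
Log2 of the summed normalized level of 6 gene lists (number of measured genes in brackets) in each 24-week library, NASH left and control right, with lines joining libraries of the same replicate number; axes differ and do not start at 0. Control replicate 1 holds the highest adipocyte sum, 15.12, and NASH replicate 3 the highest macrophage sum, 13.73.

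Fatty acid oxidation genes under the receptor PPARA were below 0 in 24 of 36 cases (median -0.09; pair medians -0.04, -0.24 and 0.01). Of them 2 were lower at an unadjusted p under 0.05, against 4.6% of all genes. The median of these genes was -0.29 without control replicate 1 and -0.15 with replicates 2 and 3 alone. Cpt1a, which carries long-chain fatty acids into mitochondria, had 12.56, 13.14 and 13.33 in NASH and 12.89, 13.45 and 13.76 in control libraries. The pair differences were alike, at -0.33, -0.31 and -0.43 (change -0.36, SE 0.15; adjusted p = 0.479). Among 22 genes of fatty acid and triglyceride synthesis, 15 were below 0 (median -0.19), but the pair medians were -0.49, 0.05 and 0.15. Without control replicate 1, the library with the high fat cell markers, that median was -0.01. Gpam, the first step of triglyceride synthesis, had a change of -0.73 (adjusted p = 0.417), and one of -0.41 without NASH replicate 1. In the same list the lipogenic transcription factor Mlxipl was higher in all 3 pairs (0.35, SE 0.11; adjusted p = 0.415), as was the elongase Elovl1 (0.23, SE 0.09; adjusted p = 0.476).

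Sterol genes showed no common direction, with 15 of 28 below 0 and a median of -0.02. That median was 0.21 without control replicate 1 and 0.06 with replicates 2 and 3 alone. Cyp51, which demethylates lanosterol, had 12.36, 10.42 and 10.72 in NASH and 11.15, 9.34 and 9.66 in control libraries. Its pairs lay close together, at 1.21, 1.08 and 1.06 (change 1.12, SE 0.44; adjusted p = 0.463), and it was called when the 24-week libraries were fitted alone. Ebp, the sterol isomerase, had a change of 0.50 (SE 0.13; adjusted p = 0.388).

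Both subunits of the bile acid exporter were on the higher side. Slc51a, the alpha subunit, had 9.93, 10.58 and 11.16 in NASH and 9.48, 10.24 and 9.91 in control libraries (change 0.68, SE 0.18; adjusted p = 0.388). At 12 weeks Slc51a and Slc51b were called higher, by 1.13 and 0.49 (adjusted p = 0.00859 and 0.0264). The apical conjugate pump Abcc2 had 11.78, 11.62 and 11.67 in NASH and 11.95, 11.94 and 12.62 in control libraries (change -0.48, SE 0.17; adjusted p = 0.435). Control replicate 3 was the highest of them, and without it the change was -0.22. The whole list of bile acid and organic ion transporters had a median of 0.06, with 17 of 28 above 0.

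Detoxification genes split within their families. Of 40 measured targets of NRF2, the regulator of antioxidant genes, 21 were above 0 and 19 below (median 0.02). At an unadjusted p under 0.05, 7 were lower and 3 higher, against 4.6% and 5.08% of all genes. Gsta2, a glutathione S-transferase of the same class as Gsta3, had 13.46, 12.48 and 11.84 in NASH and 12.84, 11.32 and 10.94 in control libraries (change 0.89, SE 0.20; adjusted p = 0.337). Reads of Gsta2 may be shared with a near-identical copy. Pgd, of the pentose phosphate pathway, had a change of -0.40 (SE 0.13; adjusted p = 0.434).

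The cytochrome P450 list of 27 genes had a median of -0.19, with 16 below 0. Cyp2a5, known for oxidizing coumarin and nicotine, had 9.18, 11.11 and 10.69 in NASH libraries, against 10.00, 12.87 and 13.52 in control libraries. The difference was larger in pairs 2 and 3, at -1.76 and -2.83, than in pair 1, at -0.82 (change -1.80, SE 0.37; adjusted p = 0.314). Cyp2d26 had a change of 0.54 (SE 0.20; adjusted p = 0.44). With replicates 2 and 3 alone Gsta2, Gsta3, Cyp2a5, Apoe and Rdh16f2 were called.

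Genes known to be higher in the male kidney, where androgens drive proximal tubule transport and metabolism, leaned lower in NASH. Of 15 measured, 12 were below 0 (median -0.38), 7 at an unadjusted p under 0.05 against 4.6% of all genes, and 9 were lower in all 3 pairs. Acsm3, a medium-chain acyl-CoA synthetase, had 6.23, 11.35 and 11.98 in NASH and 8.41, 12.61 and 13.52 in control libraries (change -1.66, SE 0.34; adjusted p = 0.314). Slco1a1, an organic anion uptake transporter, had 4.08, 11.31 and 12.28 in NASH and 5.25, 12.36 and 13.39 in control libraries. Its pairs differed by nearly the same amount, -1.18, -1.06 and -1.11, although its level in replicate 1 was low (change -1.11, SE 0.33; adjusted p = 0.415).

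Cyp4a12a, which makes the vasoactive lipid 20-HETE and has a close copy, had 5.03, 11.44 and 11.80 in NASH and 5.97, 13.14 and 13.39 in control libraries (change -1.41, SE 0.41; adjusted p = 0.415). Cyp2j13, another fatty acid oxidizing P450, had a change of -0.54 (SE 0.19; adjusted p = 0.44), which was -0.07 after quantile normalization. Acsm3, Slco1a1 and Cyp4a12a were called when the 24-week libraries were fitted alone. Kap, the androgen-regulated kidney protein and one of the most abundant transcripts, did not follow: it had 16.38, 18.21 and 18.25 in NASH and 15.09, 18.38 and 18.21 in control libraries (change 0.39, SE 0.71).

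Genes known to be higher in the female kidney mostly lay on the other side. Of 14 measured, 12 were above 0 (median 0.44) and 7 were higher in all 3 pairs, against 19.3% of all genes, with 1 higher and 1 lower at an unadjusted p under 0.05. Prlr, the prolactin receptor, had 11.34, 7.38 and 6.34 in NASH, against 10.78, 5.36 and 4.62 in control libraries (change 1.43, SE 0.48; adjusted p = 0.434). The largest differences were in the libraries of replicates 2 and 3, where the level is low. At 12 weeks the medians of the male-biased and female-biased lists were 0.18 and 0.22. How many males and females were behind each library is not given, and the part of sex in these genes was not tested.

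**Figure D4:**
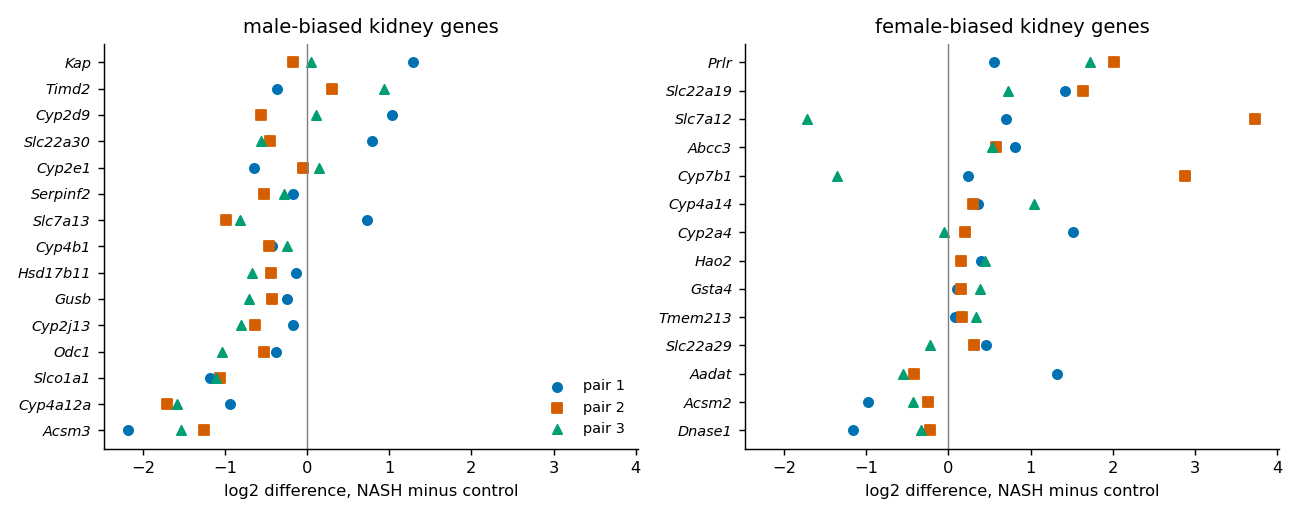
Log2 difference, NASH minus control at 24 weeks, for each replicate pair of 15 genes known as higher in male kidney (left) and 14 known as higher in female kidney (right), ordered by their fitted change. In the left panel 9 genes have all 3 pairs below 0; in the right panel 7 have all 3 pairs above 0.

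Interferon, antigen presentation and macrophage genes leaned higher in NASH. By their medians, interferon and macrophage genes did so in pairs 2 and 3, and antigen presentation genes mostly in pair 3. Of 30 measured interferon response genes, 27 were above 0 (median 0.46) and 10 were higher at an unadjusted p under 0.05, against 5.08% of all genes. The pair medians were 0.02, 0.35 and 0.93. Irf7, the factor that amplifies type I interferon, had 8.47, 7.93 and 8.50 in NASH and 7.72, 6.94 and 6.62 in control libraries. All NASH libraries lay above all control libraries (change 1.20, SE 0.28; adjusted p = 0.38), and at 12 weeks Irf7 was called higher, by 1.18 (adjusted p = 0.0268). Irf9, the DNA-binding part of the interferon-activated complex, had 8.34, 7.93 and 8.28 in NASH and 8.14, 7.25 and 7.12 in control libraries (change 0.68, SE 0.20; adjusted p = 0.415). Rtp4 and Oasl2, both antiviral effectors, had changes of 1.45 and 1.02 (SE 0.43 and 0.35; adjusted p = 0.415 and 0.434).

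The complex that holds Irf9 binds a repeat of GAAA known as the interferon-stimulated response element. The letters GAAANNGAAA were looked for on both strands of the 300 bases around each gene start, 250 before and 50 after it, in the RefSeq promoters of build GRCm38.p6. Of 25 measured interferon response genes with a promoter entry, 12 held them (48%), as did 2 of 12 antigen presentation genes (16.7%) and 1079 of 27025 genes in all (3.99%). The stretches below are from members with an unadjusted p under 0.05 in NASH and are shown because they carry this repeat. Ifih1 and H2-T23 also did and are not printed. Irf7, Irf9, Rtp4 and Oasl2 had no promoter entry or no such repeat in it. In the stretches, capitals mark the letters of the motif, on either strand and where copies overlap as 1 run. Each is read 5′ to 3′ on the strand of its gene.
Ifit1, chr19:34640773-34640825, plus strand: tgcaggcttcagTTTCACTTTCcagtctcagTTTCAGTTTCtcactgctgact
Ifit3, chr19:34583361-34583428, plus strand: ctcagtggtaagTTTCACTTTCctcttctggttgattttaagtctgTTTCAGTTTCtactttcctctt
Bst2, chr8:71537575-71537614, minus strand: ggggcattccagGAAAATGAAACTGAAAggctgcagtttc
Gbp3, chr3:142559987-142560026, plus strand: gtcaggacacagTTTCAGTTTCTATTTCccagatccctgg
B2m, chr2:122147536-122147569, plus strand: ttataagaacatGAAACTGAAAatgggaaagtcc

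Ifit1, which binds foreign RNA and holds 2 copies of the motif, had 7.33, 6.72 and 7.08 in NASH, against 6.97, 5.49 and 5.00 in control libraries (change 1.22, SE 0.43; adjusted p = 0.44). Ifit3 had 8.53, 7.57 and 7.86 in NASH and 7.96, 6.92 and 6.23 in control libraries (change 0.95, SE 0.40; adjusted p = 0.494). Bst2, the antiviral membrane tether, had 7.67, 7.24 and 8.10 in NASH and 7.60, 6.57 and 5.73 in control libraries (change 1.04, SE 0.41; adjusted p = 0.464). In all of these, pair 1 showed the smallest difference. Without control replicate 3 the changes of Ifit1, Ifit3 and Bst2 were 0.81, 0.59 and 0.53. Gbp3, a guanylate-binding protein, differed evenly across pairs, by 0.86, 0.71 and 0.76 (change 0.78, SE 0.32; adjusted p = 0.47). These members were picked for the motif after their values were seen.

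All 16 antigen presentation genes were above 0, with a median of 0.50, but the pair medians were -0.05, 0.11 and 1.53. B2m, the light chain of class I molecules, had 12.78, 12.63 and 13.55 in NASH and 12.62, 12.10 and 11.76 in control libraries (change 0.82, SE 0.26; adjusted p = 0.434). Pair 3 held most of that difference, at 1.78, and without NASH replicate 3 the change was 0.40. H2-T23, a non-classical class I gene, had a change of 0.42 (SE 0.17; adjusted p = 0.47) and H2-DMb1, a class II loading chaperone, one of 0.94 (SE 0.40; adjusted p = 0.495). Without NASH replicate 3 the change of H2-DMb1 was 0.32, and without control replicate 3 it was 0.52. Reads of histocompatibility genes may be shared among close copies.

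All 19 macrophage markers were above 0 as well, with a median of 0.68 and pair medians of -0.09, 0.97 and 0.95. Of them 3 were higher at an unadjusted p under 0.05, against 5.08% of all genes. The summed level of the markers was 13.21, 13.47 and 13.73 in NASH libraries, against 13.19, 12.79 and 12.06 in control libraries, so that NASH lay above control in replicates 2 and 3 and level with it in replicate 1. C1qb, a chain of complement C1q made by resident macrophages, had 8.96, 9.79 and 9.0 in NASH and 8.84, 8.66 and 7.48 in control libraries (change 0.92, SE 0.36; adjusted p = 0.463). The signalling adaptors Fcer1g and Tyrobp had changes of 1.09 and 0.72 (SE 0.38 and 0.25; adjusted p = 0.435 and 0.434). C3ar1, the receptor for complement C3a, is from the complement list and not among the macrophage markers. It had 5.90, 7.17 and 5.93 in NASH and 5.84, 5.67 and 3.47 in control libraries (change 1.34, SE 0.54; adjusted p = 0.47). That change was the highest of the complement list, where 10 of 18 genes were below 0 (median -0.02). Cd74, the class II invariant chain, had a change of 0.80 (SE 0.38; adjusted p = 0.534), of which pair 3 gave 2.20. Control replicate 3 was the lowest library for these genes, and without it C1qb, Fcer1g, C3ar1 and Cd74 had changes of 0.58, 0.61, 0.66 and 0.42. Of T and NK cell markers 1 of 11 was measured, and of neutrophil and B or plasma cell markers 0 of 9 and 0 of 8. The part of immune cell number in the interferon and antigen genes was not tested.

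Scarring and injury genes did not move together. Of 37 fibrosis and matrix genes 21 were above 0 (median 0.11), with pair medians of -0.28, 0.15 and 0.33. At an unadjusted p under 0.05, 0 were higher and 3 lower, against 5.08% and 4.6% of all genes. Col1a1, the main fibrillar collagen, had 9.11, 9.98 and 8.49 in NASH and 8.97, 8.38 and 8.05 in control libraries. Each NASH library was above its partner, by 0.13, 1.60 and 0.44 (change 0.72, 95% interval -0.06 to 1.51; adjusted p = 0.538). Col1a2 had a change of 0.75 (SE 0.35; adjusted p = 0.534), again set by pair 2, at 1.5; without NASH replicate 2 the changes of Col1a1 and Col1a2 were 0.28 and 0.36. Fn1, fibronectin, had 8.96, 9.03 and 7.23 in NASH and 9.39, 7.32 and 7.0 in control libraries (change 0.51, 95% interval -0.61 to 1.62). Acta2, the actin of smooth muscle and myofibroblasts, had 9.02, 9.87 and 9.12 in NASH and 10.29, 10.03 and 8.73 in control libraries (change -0.34, 95% interval -1.22 to 0.54).

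Postn and Col4a4 were among the matrix genes on the lower side. Postn, periostin, had 6.00, 7.47 and 6.43 in NASH and 7.75, 7.41 and 8.04 in control libraries (change -1.10, SE 0.35; adjusted p = 0.434). Col4a4, a basement membrane collagen of the glomerulus, had a change of -0.38 (SE 0.14; adjusted p = 0.44).

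Tubular injury genes had a median of 0.25 over 17 measured members, with pair medians of -0.10, -0.27 and 1.02. Havcr1, the injury marker KIM-1, had 4.63, 4.90 and 7.91 in NASH and 4.61, 7.29 and 6.49 in control libraries. It was high in NASH replicate 3 and in control replicates 2 and 3 (change -0.32, 95% interval -2.14 to 1.49). Lgals3, galectin-3, had 9.36, 9.62 and 9.01 in NASH and 9.34, 8.66 and 7.99 in control libraries (change 0.67, SE 0.22; adjusted p = 0.434). Fgg, a fibrinogen chain made by injured tubules, and Vcam1, an adhesion molecule, had changes of 1.23 and 0.87 (adjusted p = 0.533 and 0.561), with NASH replicate 3 highest in both, at 10.34 and 8.42. Without NASH replicate 3 the changes of Fgg and Vcam1 were 0.33 and 0.48, and without control replicate 3 they were 0.76 and 0.22. Lcn2, another injury marker, was not among the deposited genes.

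Nephron segment markers differed little, with medians of 0.02 for 21 proximal tubule genes, 0.14 for 18 genes of the loop of Henle and distal tubule, and -0.01 for 16 collecting duct genes. The summed proximal tubule level was 19.01, 19.61 and 19.66 in NASH and 18.68, 19.71 and 19.68 in control libraries. Of 13 genes of vitamin D, phosphate and klotho 9 were below 0 (median -0.27), 8 of them lower in all 3 pairs, against 14.4% of all genes. Without control replicate 1 that median was -0.03. Slc34a3, the second renal sodium-phosphate cotransporter, had 10.23, 9.56 and 9.29 in NASH and 10.59, 9.92 and 9.76 in control libraries, with pairs at -0.36, -0.37 and -0.48 (change -0.40, SE 0.10; adjusted p = 0.388). Slc20a1 and Slc20a2, phosphate carriers of a different family, had changes of -1.03 and -0.34 (adjusted p = 0.434 and 0.44). Slc5a2, the glucose cotransporter SGLT2, had a change of -0.33 (SE 0.14; adjusted p = 0.507), and Slc34a1 one of 0.02 (95% interval -0.32 to 0.37).

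Calb1, the calcium-binding protein of the distal tubule, had 12.39, 10.81 and 10.31 in NASH and 13.89, 11.30 and 10.94 in control libraries (change -0.87, SE 0.27; adjusted p = 0.434). It was called lower at 12 weeks, by -1.15 (adjusted p = 0.0255). Cldn19, a tight junction protein of the thick ascending limb, had 8.55, 6.80 and 6.15 in NASH and 6.92, 5.13 and 5.97 in control libraries (change 1.16, SE 0.51; adjusted p = 0.508). Without NASH replicate 1 its change was 0.68, and Calb1 had -0.45 without control replicate 1.

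Podocyte markers were above 0 in 12 of 14 cases, with a median of 0.29 and pair medians of 0.24, 0.19 and 0.33. Of them 5 were higher at an unadjusted p under 0.05, against 5.08% of all genes. Nphs1, nephrin of the filtration slit, had 10.36, 8.95 and 9.22 in NASH and 9.92, 8.54 and 8.74 in control libraries. Its pairs were alike, at 0.43, 0.41 and 0.49 (change 0.44, SE 0.19; adjusted p = 0.503). Clic3 and Cdkn1c had changes of 0.73 and 0.69 (SE 0.25 and 0.22; adjusted p = 0.434 each). The summed podocyte level was 14.19, 12.89 and 13.04 in NASH and 13.97, 12.74 and 12.64 in control libraries. At 12 weeks the podocyte median was 0.01. The share of glomeruli in each piece of cortex is not given, and its part here was not tested.

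Ren1, renin, had 11.75, 9.93 and 10.29 in NASH and 9.82, 10.16 and 9.86 in control libraries, where NASH replicate 1 alone was high (change 0.71, SE 0.42; adjusted p = 0.608).

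Amino acid metabolism leaned higher, with 32 of 43 genes above 0 (median 0.16). At an unadjusted p under 0.05, 9 were higher and 3 lower, against 5.08% and 4.6% of all genes. Dmgdh and Bhmt2, of the betaine and methyl group pathway, had changes of 0.49 and 0.50 (SE 0.12 and 0.13; adjusted p = 0.38 and 0.388). Dmgdh had 11.58, 11.53 and 11.11 in NASH and 10.99, 10.98 and 10.79 in control libraries, with no overlap. Agxt2, an aminotransferase that degrades dimethylarginines, had a change of 0.34 (SE 0.10; adjusted p = 0.415), and Fah, the last step of tyrosine breakdown, one of 0.25 (SE 0.08; adjusted p = 0.434).

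Ribosomal and respiratory chain genes lay slightly above 0 almost throughout. Of 76 cytosolic ribosomal protein genes 75 were above 0, with a median of 0.22 and 25 at an unadjusted p under 0.05 against 5.08% of all genes. Pair 3 showed the largest median, 0.48, against 0.14 in pair 1 and 0.04 in pair 2. Rpl7a had 13.34, 13.35 and 13.37 in NASH and 13.01, 13.19 and 12.87 in control libraries (change 0.33, SE 0.09; adjusted p = 0.415). Rpl28 had a change of 0.37 (SE 0.12; adjusted p = 0.434). Of 75 oxidative phosphorylation genes 67 were above 0 (median 0.13), with Ndufa12, of complex I, at 0.30 (SE 0.09; adjusted p = 0.415) and Atp5g1, of ATP synthase, at 0.31 (SE 0.12; adjusted p = 0.449). With a trend over base composition and transcript length removed, the 2 medians were 0.09 and 0.01.

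Blood and liver markers were also counted. Of 9 measured erythroid genes 8 were above 0, with a median of 1.15 and pair medians of 1.20, 0.03 and 2.10. Of them 6 were higher at an unadjusted p under 0.05, against 5.08% of all genes. Most of the measured members are alpha or beta globin entries with close copies. Reads may be shared among them, so these counts are not of independent genes. Alas2, the first enzyme of heme synthesis in red cells, had 8.75, 7.31 and 8.12 in NASH and 7.39, 6.45 and 6.02 in control libraries (change 1.44, SE 0.30; adjusted p = 0.314). Hba-a1, an alpha globin gene with a near-identical copy, had a change of 1.36 (SE 0.46; adjusted p = 0.434). Of 14 hepatocyte genes 10 were above 0 (median 0.34), with pair medians of 1.03, -0.08 and 0.06; without control replicate 1 the median was 0.12, and with replicates 2 and 3 alone 0.00. Ttr, transthyretin, had 10.67, 10.14 and 9.40 in NASH and 8.43, 8.81 and 8.92 in control libraries (change 1.35, SE 0.59; adjusted p = 0.508). Without NASH replicate 1 the change of Ttr was 0.46; at 12 weeks it was called higher, by 2.77 (adjusted p = 0.0185). Apob, the apolipoprotein of secreted lipid particles, had 12.31, 11.07 and 11.16 in NASH and 12.70, 11.77 and 11.94 in control libraries (change -0.63, SE 0.14; adjusted p = 0.323), and was called lower at 12 weeks, by -0.67 (adjusted p = 0.0151). Hp, haptoglobin, had a change of -2.02 (SE 0.74; adjusted p = 0.44), of which pair 1 gave -4.06. Serpina1a, of a family of close copies, was at 7.65, 8.11 and 4.34 in NASH and 4.25, 3.91 and 4.11 in control libraries.

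The circadian clock, which separates the groups at 12 weeks, was close between them at 24 weeks. Of 18 measured clock genes, 0 were called at 24 weeks with limma and 1 had an unadjusted p under 0.05, while 8 were called higher and 4 lower at 12 weeks, against 3.01% and 9.85% of all genes. The median change was -0.15 at 24 weeks and 0.51 at 12 weeks. Arntl, the clock activator BMAL1, had 9.21, 8.18 and 8.21 in NASH and 9.18, 8.19 and 7.90 in control libraries at 24 weeks (change 0.11, 95% interval -0.34 to 0.57), against a change of -1.64 at 12 weeks (adjusted p = 0.00394). Npas2, a partner of Arntl, had a change of -0.03 at 24 weeks (95% interval -0.61 to 0.55) and -2.61 at 12 weeks. Dbp, an output factor of the clock, had 5.63, 8.65 and 6.73 in NASH and 5.73, 7.86 and 8.01 in control libraries (change -0.20, 95% interval -1.52 to 1.12), against 5.48 at 12 weeks (adjusted p = 0.00218). The repressors Nr1d1, Per2 and Per3 had changes of -0.15, -0.19 and 0.35 at 24 weeks, against 1.19, 1.24 and 1.69 at 12 weeks. Cry2, a further repressor, had the smallest p of the list at 24 weeks (change -0.45, SE 0.15; adjusted p = 0.434), with pairs at -0.68, 0.01 and -0.69.

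**Figure D5:**
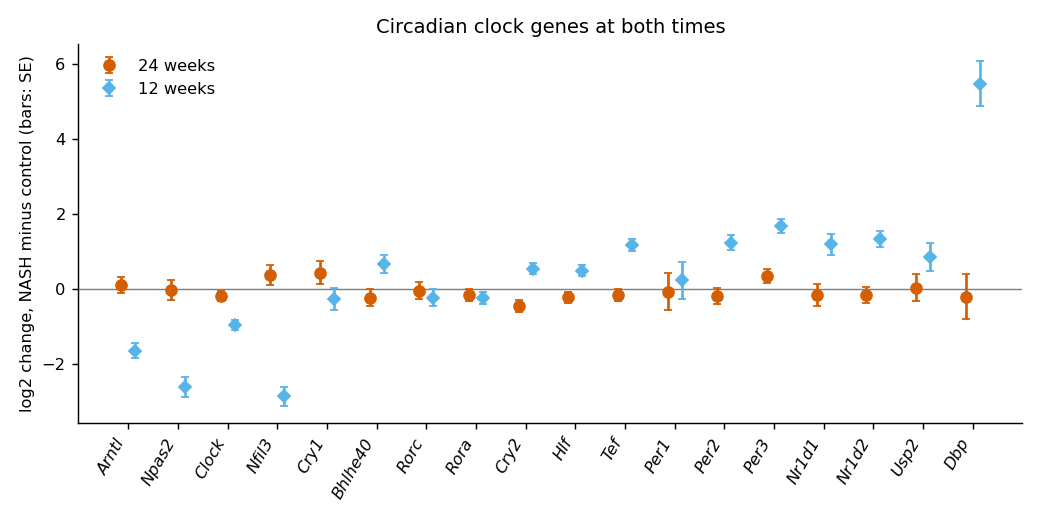
Fitted log2 change, NASH minus control, of 18 circadian clock genes at 24 weeks (circles) and at 12 weeks (diamonds), with bars of 1 SE. At 24 weeks the changes lie between -0.45 and 0.44, and at 12 weeks Dbp reaches 5.48 and Nfil3 -2.86.

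The NASH effect differed between the times, by a test of the difference itself, in 1 gene (0.00861%) with the adjusted p under 0.05 and in 1489 (12.8%) at an unadjusted p under 0.05. That gene was Nfil3, a repressor in the output of the clock. Its 24-week level was 8.24, 6.94 and 7.76 in NASH and 8.01, 6.85 and 6.93 in control libraries, a change of 0.38 (SE 0.26), against -2.86 at 12 weeks. The difference was 3.24 (95% interval 2.43 to 4.05; adjusted p = 0.034), and it was not called without the block or without the mean-variance trend, or when replicate 2 or 3 of a group was left out, with replicate 2 of NASH at 12 weeks as the exception. Next in rank, and not called, were the integrin Itga6 (1.60), Npas2 (2.58), Ypel2 (2.15) and the membrane protein Prom1 (1.49) on the higher side, each with an adjusted p of 0.0739. On the lower side were Dbp (-5.68) and Gpd2 (-0.98), with an adjusted p of 0.0739 each, G0s2 (-1.96) and the output factor Tef (-1.32), with 0.0845 each, and the peroxisomal hydrolase Nudt19 (-1.30; 0.0891). Itga6, Ypel2, Tef and Nudt19 had 24-week changes of 0.27, 0.37, -0.15 and 0.00.

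Of the genes called at 12 weeks, most lay on the same side of 0 at 24 weeks. The 12-week test did not compare the 24-week libraries, but all 12 libraries shared its block and its estimate of the spread. Of 350 genes called higher at 12 weeks, 285 were above 0 at 24 weeks (81.4%, against 52.1% of all genes), with a median change of 0.172. Of 1144 called lower, 903 were below 0 at 24 weeks (78.9%, against 47.9% of all genes), with a median change of -0.143. Their 12-week medians, 0.541 and -0.587, are of genes chosen for passing at 12 weeks and are not comparable with these. With the trend over base composition and transcript length removed from the 24-week changes, these shares were 62.4% and 67.3%, and the medians 0.0519 and -0.0767. The monocarboxylate carrier Slc16a1 was called lower at 12 weeks (-1.91) and had 10.36, 10.37 and 10.55 in NASH and 10.53, 11.07 and 11.15 in control libraries at 24 weeks (change -0.50, SE 0.20; adjusted p = 0.475). Ndrg1, a stress-responsive gene, was called lower at 12 weeks (-1.43) and had a change of -0.13 at 24 weeks (SE 0.18; adjusted p = 0.84).

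The remaining lists are given by their medians. Proteasome, tricarboxylic acid cycle, glycolysis, cell cycle, lysosome and retinoid genes had medians of 0.04, 0.04, 0.04, 0.06, 0.06 and 0.05. Medians were -0.02 for the unfolded protein response and for complement, -0.03 for cytokines, -0.06 for hypoxia, -0.08 for heat shock chaperones, with 7 of 22 lower in all 3 pairs, and -0.16 for immediate early genes, with pair medians of -0.43, -0.16 and 0.21. Among chaperones, Hsp90aa1, the inducible HSP90, had 12.62, 12.60 and 12.51 in NASH, against 13.12, 13.03 and 13.00 in control libraries. All NASH libraries lay below all control libraries, by pairs of -0.50, -0.44 and -0.49 (change -0.48, SE 0.10; adjusted p = 0.323). Endothelial markers had a median of 0.18, with 14 of 18 above 0, pair medians of -0.14, -0.05 and 0.63, and 0.35 without control replicate 1, and smooth muscle, pericyte and juxtaglomerular markers one of 0.05.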

How the data were processed

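Kidney cortex RNA was sequenced in 12 libraries, of which 6 are from 24 weeks. Per the labels' protocols, RNA integrity was above 7.5. Per the submitters' processing notes, BWA, limma and mm10 were used; versions and roles are not given in the sources used here. The deposited values are log2 values per gene for 11614 genes, normalized by the authors per the file headers and used as deposited. Low values were whole multiples of 1 step per library, within 0.02 steps, for 87.2% to 92.4% of them, which gave the estimated depths of 7170000 to 14050000 reads. At low levels counting error is therefore large, and it enters the spread between libraries. Every gene reached a normalized level of 100 in some library.

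The model, in limma 3.58.1 under R 4.3.3, held 4 group means over all 12 libraries, the replicate number as a block, a mean-variance trend, 2-sided moderated tests and Benjamini-Hochberg adjustment per gene. All 12 libraries share the estimate of the spread. The block was used because libraries are matched by number. Correlations were taken between libraries of different groups, over the deviations of each gene from its group mean. By these deviations, same-numbered libraries correlated above 0.1 in all 18 pairs (0.19 to 0.74). Pairs of replicate 2 with 3 correlated from 0.19 to 0.64, so the numbers are shown to set replicate 1 apart and not to pair 2 with 2. What the numbers mean is not labelled. The fits were tested on simulated data. The comparison, the lists and the rule for named genes were chosen with earlier results of these data known.

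The rule names up to 15 called genes per direction, or, where fewer than 5 pass, the 5 with the smallest p, up to 5 per direction for the difference between times, 2 to 4 members per list described, and a fixed set. Predicted loci were not named, and several genes under this rule are not reported here. Alternatives were no block, 24-week libraries alone, replicates 2 and 3 alone, other scalings, trends and filters, a pseudocount of 16, removal of a trend over base composition and length, and leaving out each library. Coordinates are on mm10 as deposited, with starts counted from 1. Promoters are from RefSeq. Python 3.11.15 with pandas 2.3.3 and numpy 2.4.6 made the tables, and matplotlib 3.10.9 the figures.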

Additional observations from a re-analysis of the deposited data

Results flagged for a closer look

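The NASH effect on Nfil3 differed between the times by 3.24 (24 minus 12 weeks), the 1 gene for which the test of the difference passed.

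All 3 pairs went one way at 24 weeks and all 3 the other way at 12 weeks in 410 of 11614 genes (3.53%). Nfil3 and 8 more are among the 107 genes followed in the text (8.41%), which were partly chosen for this difference, and for the 8 the test of the difference did not pass. The difference was 1.60 for Itga6, 2.15 for Ypel2 and -0.98 for Gpd2 (adjusted p = 0.0739 each, limma), and -1.96 for G0s2 (0.0845). It was -1.58 for Hsd11b1, which regenerates active glucocorticoid (adjusted p = 0.192).

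In the fat cell genes Adipoq, Cidec and Plin4 it was -5.84, -2.50 and -3.31 (adjusted p = 0.283, 0.232 and 0.192). For these the 24-week pair differences were largest in pair 1, at -8.33, -3.99 and -4.20, where control replicate 1 was high.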

How the results depend on the processing

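Of 2526 gene values under 22 alternatives, 2432 kept their direction and their side of the threshold, 50 newly passed it, 10 no longer did and 34 changed sign. Azgp1 was called in 21 of 22, with changes from -1.49 to -1.38 and adjusted p from 0.000359 to 0.0205 with the block. Dropping the replicate block left 0 called genes at 24 weeks and 0 for the difference. At 24 weeks 8 genes were called with the 24-week libraries fitted alone, 25 with replicates 2 and 3 alone, 2 with robust moderation, and 1 to 4 when 1 library was left out (4 without NASH replicate 1, 3 without 12-week control replicate 1). For the difference, 91 were called with replicates 2 and 3 alone, 4 after quantile normalization, 0 without the mean-variance trend, 0 when genes needed a mean log2 level of 8, and 0 to 29 when 1 library was left out, with 29 without 24-week control replicate 1. Of 97 named genes with an absolute change of at least 0.2, 43 moved by over 1.5 times when 1 library was left out, most often control replicate 3 (17), NASH replicate 1 (16) or NASH replicate 3 (15); Azgp1 did not. Fewer genes or samples entered some of these fits; otherwise the cause was not tested.

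The changes of sign were in genes that were not called. With replicates 2 and 3 alone Kap had -0.06, Xist -0.02, Acta2 0.12, Npas2 0.06, Per2 0.08 and Nudt19 -0.25. With the trend over base composition and length removed Slc34a1 had -0.01, Npas2 0.01 and Nudt19 -0.05. Ddx3y had 0.04 after quantile normalization and Nudt19 -0.00 after median-of-ratios scaling. With 1 library left out the changes ranged from -0.44 to 0.11 for Plin2, -0.29 to 0.75 for Kap, -0.33 to 0.77 for Xist, -1.2 to 0.46 for Havcr1, -0.07 to 0.11 for Slc34a1, -0.78 to 0.42 for Dbp, -0.09 to 0.32 for Arntl, -0.14 to 0.19 for Npas2, -0.41 to 0.2 for Nr1d1, -0.38 to 0.02 for Per2, -0.23 to 0.01 for Ndrg1, -0.4 to 0 for Tef and -0.19 to 0.23 for Nudt19. Of 967 list medians 31 moved by more than the spread between pairs.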

Other observations

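A few genes called with replicates 2 and 3 alone, that is with 2 pairs and limma, were named after their values were seen. Ugt2b37, a glucuronosyltransferase with close copies, had 5.66, 12.39 and 12.31 in NASH libraries, against 4.03, 9.70 and 10.01 in control libraries. With replicates 2 and 3 alone its change was 2.49 (adjusted p = 0.00015), and over all replicates it was 2.21 (adjusted p = 0.319). All 3 pairs were higher, by 1.63, 2.69 and 2.30, and it was also called with the 24-week libraries fitted alone (adjusted p = 0.0223) and without 12-week control replicate 1 (adjusted p = 0.0388). Slc2a5, the fructose transporter, had 10.99, 10.36 and 10.05 in NASH and 10.82, 11.61 and 11.43 in control libraries, with a change of -1.32 in replicates 2 and 3 (adjusted p = 0.00177) and -0.82 over all (adjusted p = 0.415). Hsd11b1 had 9.91, 9.75 and 10.29 in NASH and 9.95, 11.07 and 11.93 in control libraries, with a change of -1.48 in replicates 2 and 3 (adjusted p = 0.00177) and -1.0 over all (adjusted p = 0.415). For Slc2a5 and Hsd11b1 the pair 1 differences were 0.17 and -0.05. Whether the effect differs between replicate 1 and the others was not tested.

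Genes were also sorted by how far their 12-week level in replicates 2 and 3 lay from that in replicate 1, a split added after the data were seen and given with no test. For 83 genes higher by over 2 (log2) in replicates 2 and 3, the median 24-week differences, NASH minus control, were 0.26, -0.34 and -0.35 in pairs 1, 2 and 3. For 55 genes higher by over 2 in replicate 1 they were 0.06, 0.31 and 0.26, and for 8601 genes within 0.5 they were 0.02, 0.04 and 0.00.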
